A study of Mus musculus with 13 samples.

Results

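The nuclear-encoded subunits of oxidative phosphorylation were followed in liver endothelial cells of germ-free and conventionally raised mice. Members were taken from the deposited count table by gene symbol, namely the symbol families of complexes I to V with cytochrome c1 and cytochrome c. This gave 91 of 24421 symbols. Of the 91, 85 are subunits or cytochrome c: 36 of complex I, 4 of complex II, 9 of complex III with Cyc1, cytochrome c itself, 20 of complex IV and 15 of complex V. The other 6 share a symbol stem with subunits but are not subunits: the complex II assembly factors Sdhaf1 to Sdhaf4, and Atp5s and Atp5sl. The table holds 0 mitochondrially encoded symbols, so the subunits made inside mitochondria were not analysed here.

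All 13 libraries came from wild type mice, 7 from conventionally raised animals (CONV-R, libraries 1 to 7), which carry a normal microbiota, and 6 from germ-free animals (GF, libraries 8 to 13), which are raised without microbes. The labels state no strain, sex, age or way of isolating the cells, nor whether each library is 1 animal, so the p-values speak only of variation among these libraries, which may be technical. Poly(A) RNA was read as stranded libraries on 1 type of sequencer, and totals ran from 7590320 to 35478115 counts. Library names carry a code number that differs between the groups (10 for CONV-R 1 to 4, 9 for CONV-R 5 to 7, 6 for all GF), and its effect and that of the group cannot be told apart.

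Oxidative phosphorylation makes ATP from electrons that complexes I and II pass through complex III and cytochrome c to oxygen at complex IV, while complex V uses the resulting proton gradient to make ATP. A few core subunits of the chain are encoded in mitochondrial DNA, and the rest are nuclear genes whose mRNAs are mostly short and abundant. Endothelial cells are known to draw much of their ATP from glycolysis. Several subunits of complexes IV and V exist as isoforms encoded by separate genes, some of which are used mainly in heart, skeletal muscle, lung or testis.

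The labelled cell type was checked against its markers. The 8 sinusoidal endothelial genes, all in the table, summed to 15474 to 26301 CPM (counts scaled to the library total) in CONV-R and 26735 to 28321 in GF. Hepatocyte genes (10 of 10 in the table) summed to 1350 to 8090 CPM in CONV-R against 750.0 to 1213 in GF, neutrophil and monocyte genes (6 of 6) to 151 to 2153 and 67.3 to 154, and B cell genes (4 of 5) to 42.6 to 1315 and 14.7 to 28.6. Each of these 4 sums differed between the groups by an exact two-sided permutation test (1716 arrangements), with Benjamini-Hochberg adjusted p = 0.00641. Cholangiocyte genes were higher in GF (259 ± 89.9 against 117 ± 81.9 CPM, SD, n = 6 and 7, adjusted p = 0.0372, exact permutation). Pan-endothelial genes (6 of 6) summed to 8154 to 14240 CPM in CONV-R against 13145 to 14353 in GF (adjusted p = 0.271, exact permutation). Kupffer cell genes were at 1470 to 4675 CPM in CONV-R against 1349 to 2171 in GF (adjusted p = 0.155, exact permutation). The 4 globin genes had 0 counts in every library. The part of these other cells in the results below was not tested except where a value is given. In bulk samples fewer cells of a type and less RNA per cell cannot be told apart.

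The respiratory chain genes as a whole stood at nearly the same level in both groups, relative to all genes. Their summed level, in CPM after edgeR's TMM scaling, was 5613 ± 589 in CONV-R (SD, n = 7, lowest 4717, median 5515, highest 6332) and 5779 ± 223 in GF (n = 6, lowest 5482, median 5763, highest 6040). The GF libraries lay inside the range of the CONV-R libraries. Members made up 0.494% to 0.666% of all counts of a library. In the plot of summed levels per complex the groups overlapped in complexes I, II, III, IV and V and in cytochrome c. The GF libraries were not all inside the CONV-R range for complex II (GF 11 at 469, CONV-R highest 465). The same held for cytochrome c (GF 8 at 44.1, CONV-R lowest 44.6).

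**Figure D1:**
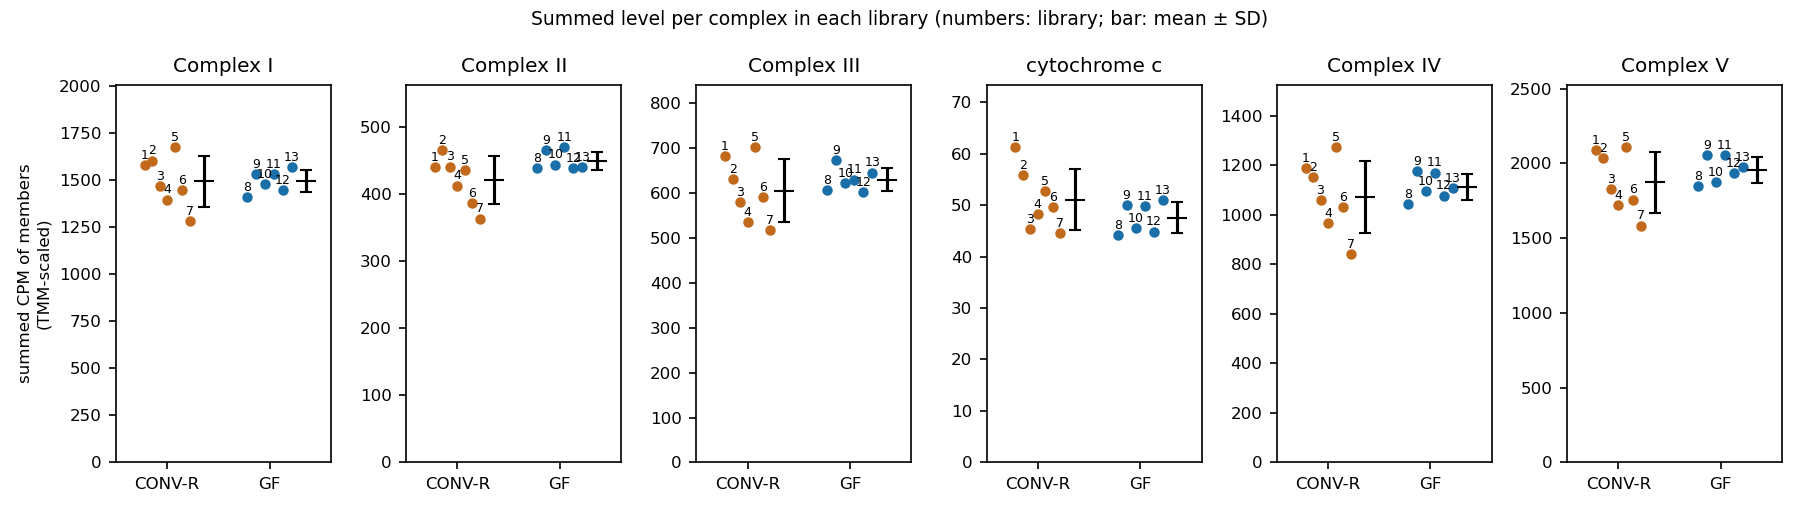
Summed TMM-scaled CPM of the members of each complex (y axis) in the 7 CONV-R and 6 GF libraries (x axis); points are libraries, numbered, and bars give the mean ± SD. Complex I stood at 1494 ± 134 CPM in CONV-R and 1496 ± 59.9 in GF, and CONV-R 7 was the lowest library for complexes I to V.

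Of the 91 members, 84 passed the filter on low counts and were tested with edgeR's quasi-likelihood test in a fit over 13915 genes. At a Benjamini-Hochberg adjusted p under 0.05, 1 member was higher in GF (Uqcrc2) and 1 was lower (Atp5s, not a subunit). Over all tested genes 24.1% were called, 11.4% higher and 12.7% lower, and 25.0% of the 9453 genes at a mean of at least 10 CPM. DESeq2 called 3 members beside 29.5% of all genes. Limma-voom, used throughout with a quality weight for each library, called 7 beside 25.5%. At an unadjusted p under 0.05 there were 8 members, 4 in each direction, or 9.52% of those tested, beside 38.9% of all genes. The median log2 fold change (GF over CONV-R) was 0.02 over the tested members and -0.01 over all tested genes. The median size of the change, regardless of direction, was 0.09 on the log2 scale for members, 0.20 for all genes and 0.16 for genes at a mean of at least 10 CPM.

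The intervals bound how large a difference these data allow under TMM scaling, with no removal of length or GC trends. With those trends removed, as described below, some members lay outside them, such as Ndufb10 (0.27, against an upper end of 0.21). For 78 of the 84 tested members (92.9%) the 95% interval of the fold change lay within 1.5-fold in both directions, against 59.4% of all tested genes and 76.8% of those at a mean of at least 10 CPM. For 52 members it lay within 1.25-fold. The 6 exceptions to the 1.5-fold bound were Atp5e, Cox7a1, Ndufa4l2, Sdhaf1, Atp5s and Atp5sl. In the plot of log2 fold changes by complex, most members lie close to 0 with short intervals.

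**Figure D2:**
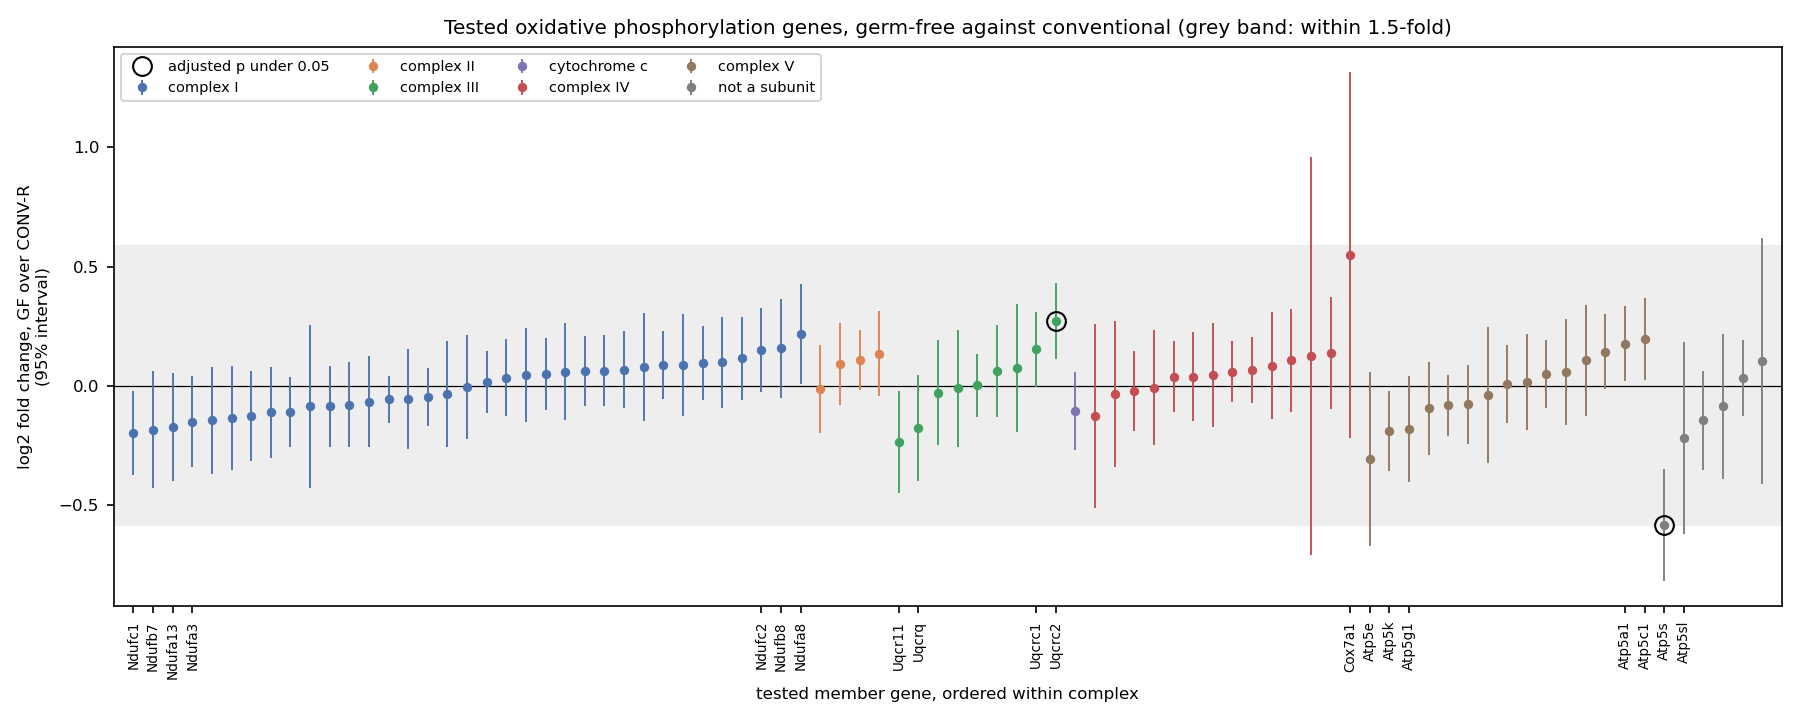
log2 fold change of each of the 84 tested members, GF over CONV-R (y axis), ordered within complex (x axis; members with an unadjusted p under 0.05 or a log2 fold change over 0.15 in size are labelled), with 95% intervals. The grey band marks 1.5-fold, and circles mark adjusted p under 0.05. Uqcrc2 (0.27) and Atp5s (-0.59) are circled, and the widest intervals belong to the scarce Cox7a1 and, unlabelled in complex IV, Ndufa4l2.

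This near-equality depended on how transcript length was treated. Short mRNAs as a class had lower log2 fold changes: the 1203 tested non-members of at most 1000 bases had a median log2 fold change of -0.12, with 3.74% called higher and 13.7% lower, and the 12133 longer ones had a median of 0.00. Members are short (median 745 bases, against 2686 over all tested genes with a length). The 53 members of at most 1000 bases had a median of -0.01 and 0 calls by edgeR or DESeq2 (3 lower by limma-voom), and the 30 longer ones a median of 0.05. Across genes, which are not independent replicates, Spearman's rho of length with log2 fold change was 0.29 over 83 members and 0.21 over 13419 genes.

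When the trends of each library with length and GC content were removed before the edgeR fit, 29 of 83 members were higher in GF and 1 (Atp5s) was lower, beside 13.3% and 11.3% of 13419 genes. The 29 comprised 12 genes of complex I, 2 of complex II, 3 of complex III, 5 of complex IV and 7 of complex V, with log2 fold changes from 0.17 to 0.40, or 1.12-fold to 1.32-fold. The median member stood at 0.19 and the median of all genes at 0.03. Removing the length trend alone gave 27 higher and 1 lower, beside 12.8% and 11.2% of all genes. Removing the GC trend alone gave 4 and 1, beside 12.9% and 10.7%. Cytosolic ribosomal protein genes, another set of short abundant mRNAs, shifted likewise. Their median went from -0.03 with 0 of 79 called by edgeR (1 at an unadjusted p under 0.05, 0 called by DESeq2, 3 by limma-voom) to 0.16 with 6 higher. Under scaling by library totals, which shifted the median of all genes to -0.11, 0 members were higher (1 at an unadjusted p under 0.05) and 6 lower, beside 6.98% and 19.9% of all genes. Higher calls then made up 25.9% of all calls, against 47.5% under TMM.

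**Figure D3:**
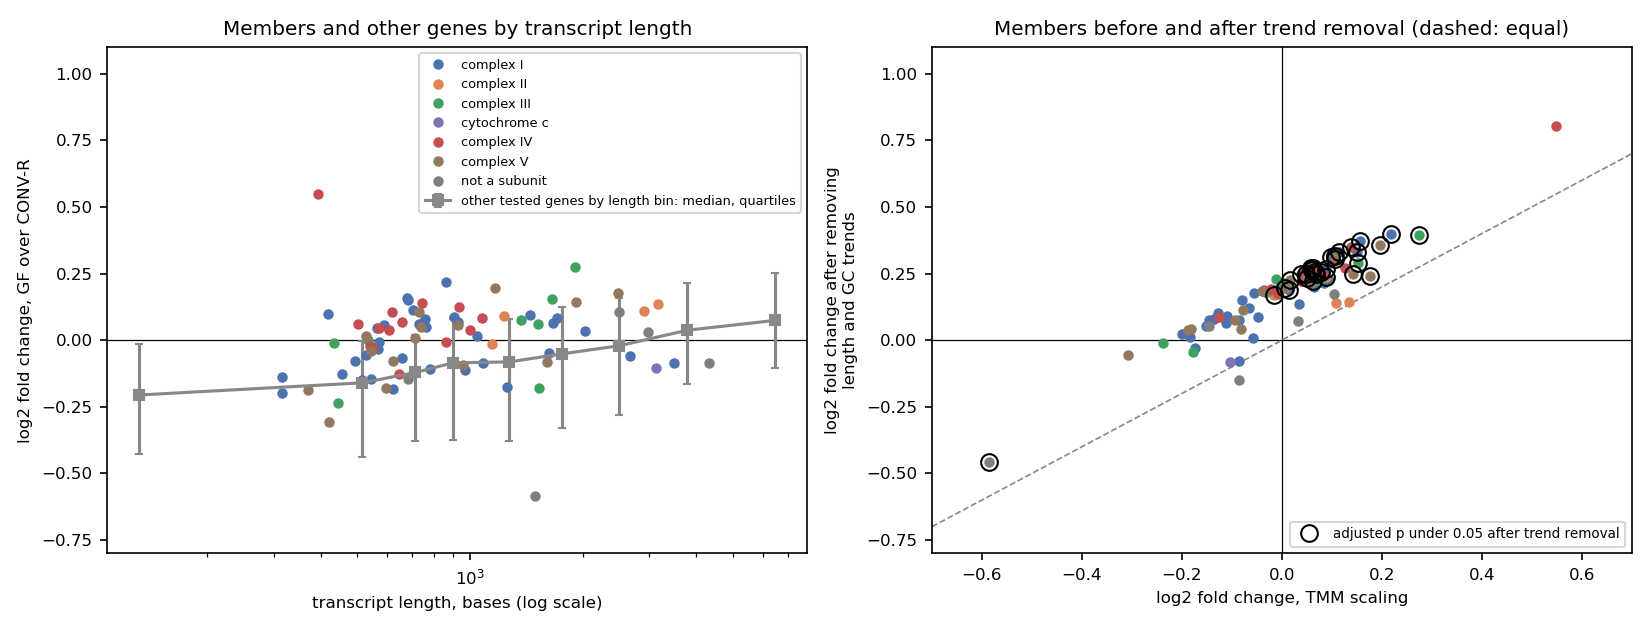
Left, log2 fold change (GF over CONV-R) against transcript length in bases (log axis) for the members with a length (points) and for other tested genes in 9 length bins (grey squares, medians with quartiles). Right, each member's log2 fold change before (x axis) and after (y axis) removal of the length and GC trends; 30 members are circled for adjusted p under 0.05 after removal, and nearly all points lie above the dashed line of equality.

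Complex I oxidises NADH. None of its 35 tested genes was called by edgeR or DESeq2, and limma-voom called 1. At an unadjusted p under 0.05 there were 2: Ndufa8, an accessory subunit with the largest difference of the complex, at 0.22 ± 0.10 (log2 fold change ± SE, edgeR adjusted p = 0.115), and Ndufc1, a small accessory subunit named after its values were seen, at -0.20 ± 0.08 (edgeR adjusted p = 0.0903). Ndufa8 stood at 48.1, 55.7 and 73.1 CPM in CONV-R (lowest, median, highest) with a mean of 58.4 ± 8.07, and at 68.1 ± 8.13 in GF. The core subunits Ndufs1, Ndufs3, Ndufs7, Ndufs8, Ndufv1 and Ndufv2, of the arm that carries the electrons, lay between -0.11 and 0.08 in log2 fold change. The median of the complex was -0.01, with 17 genes above 0 and 18 below.

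Ndufs5, an accessory subunit, had 1 count in all 13 libraries together. The other genes of complex I had 3876 counts or more, so this row of the table says little about the gene. How reads with several mapping positions were counted is not known. Many respiratory chain genes have processed copies elsewhere in the genome, with which they could share or lose reads.

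Complex II oxidises succinate and also serves the citric acid cycle. Its 4 genes had a median log2 fold change of 0.10, 0 had an unadjusted p under 0.05, and none was called by edgeR, DESeq2 or limma-voom. Sdha, the flavoprotein and the most abundant of the 4, stood at 202, 232 and 250 CPM in CONV-R (lowest, median, highest) and 236 to 254 in GF (mean 245 ± 6.98). All 6 GF libraries lay above the CONV-R median, and the groups overlapped. Sdhc, a membrane anchor, had the largest difference of the 4 at 0.13 ± 0.08 (edgeR adjusted p = 0.241).

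Complex III passes electrons from ubiquinol to cytochrome c, and it holds the subunit that was called. Uqcrc2 encodes core protein 2, which faces the mitochondrial matrix; the gene lies on chromosome 7, bases 120635176 to 120659524, in GRCm38. Its level was 81.0, 106.3 and 111 CPM in CONV-R (lowest, median, highest; mean 101.1 ± 11.4) and 113, 124 and 129 CPM in GF (mean 122 ± 5.79). All 6 GF libraries lay above all 7 CONV-R libraries, an order seen for 5.94% of all tested genes. The log2 fold change was 0.27 ± 0.07 (SE; 95% interval 0.11 to 0.43), a 1.21-fold difference, with edgeR adjusted p = 0.0185. The call was lost without GF 9 (edgeR adjusted p = 0.0528), under scaling by library totals (0.18, edgeR adjusted p = 0.0942) and with the hepatocyte marker share in the model (0.27, edgeR adjusted p = 0.278). With that share in the model the calls over all genes fell to 267 higher and 224 lower. The share was 1350 to 8090 CPM in CONV-R and 750.0 to 1213 CPM in GF, with no overlap. Its effect and that of the group are therefore hard to tell apart in this fit.

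Its partner Uqcrc1, core protein 1, stood at 0.15 ± 0.07 with 6 of 6 GF libraries above the CONV-R median and edgeR adjusted p = 0.141. Uqcr11, a small subunit named after its values were seen, stood at -0.24 ± 0.10 (edgeR adjusted p = 0.0958), with 0 of 6 GF libraries above the CONV-R median. The catalytic subunits Cyc1 (cytochrome c1) and Uqcrfs1 (the Rieske iron-sulfur protein) were at 0.06 ± 0.09 and 0.08 ± 0.12. Cycs, the mobile cytochrome c that carries electrons onward, stood at 51.1 ± 5.96 CPM in CONV-R and 47.5 ± 3.01 in GF, a log2 fold change of -0.10 with a 95% interval of -0.27 to 0.06.

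Complex IV reduces oxygen to water. None of its 14 tested genes was called by edgeR, DESeq2 or limma-voom, 0 had an unadjusted p under 0.05 in the edgeR fit, and the median log2 fold change was 0.05. Cox4i1, the most abundant gene of the complex and its common form of subunit 4, stood at 116.1, 156 and 201 CPM in CONV-R (lowest, median, highest) and 168 to 191 in GF. The GF libraries lay within the CONV-R range, with a log2 fold change of 0.14 ± 0.11. Per kilobase of transcript, the common forms Cox4i1, Cox6a1, Cox6b1, Ndufa4 and Cox8a stood at levels of 218, 179, 162, 161 and 152 CPM in CONV-R, where Cycs stood at 16.4.

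The tissue-restricted isoforms were scarce in both groups. In CPM per kilobase, median CONV-R levels were 2.54 for Cox7a1, 1.01 for Cox6b2, 0.602 for Ndufa4l2, 0.337 for Cox6a2, 0.216 for Cox8b and 0.180 for Cox4i2. The range of each gene over the 7 libraries overlapped that of the next in this order, and 1 library stood apart for Cox6a2 (7.23 in CONV-R 1, next 0.643) and Cox4i2 (0.963 in CONV-R 7, next 0.316). Cox7a1, a form used mainly in muscle, passed the filter at 0.372, 0.999 and 1.90 CPM in CONV-R (lowest, median, highest) and 1.15 to 1.84 in GF, with a log2 fold change of 0.55 ± 0.36 and an interval from -0.22 to 1.31. Ndufa4l2 stood at 0.131 to 0.846 CPM in CONV-R against 0.214 to 0.972 in GF. Cox4i2, Cox6a2, Cox6b2, Cox8b, Cox7b2 and Cox8c were not tested, and the last pair had 0 counts in all libraries, which allows up to 0.0846 to 0.395 CPM depending on the library (3 counts of its total; counting error only).

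Cox6a2, the form of subunit 6a used mainly in heart and muscle, was high in 1 library. It stood at 4.92 CPM in CONV-R 1, at 0.102 to 0.437 in the other 6 CONV-R libraries and at 0.0428 to 0.208 in GF. Without the filter on low counts edgeR called it lower in GF (adjusted p = 0.0404), with that library in the CONV-R group. In the same library B cell genes summed to 1315 CPM, against 42.6 to 59.4 in the other CONV-R libraries, and T and NK cell genes to 92.4. Their part in the Cox6a2 value was not tested.

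Complex V makes ATP. None of its 15 tested genes was called by edgeR, where 3 had an unadjusted p under 0.05; DESeq2 called 1 and limma-voom 3. Its head holds the alpha, beta and gamma subunits Atp5a1, Atp5b and Atp5c1, which stood at log2 fold changes of 0.18 ± 0.07, 0.14 ± 0.07 and 0.20 ± 0.08 with edgeR adjusted p = 0.0908, 0.165 and 0.0884. All 6 GF libraries lay above the CONV-R median for each of these genes, and the groups overlapped. Atp5a1 passed the threshold in DESeq2, and Atp5a1 and Atp5c1 in limma-voom. Atp5b, the catalytic subunit and the most abundant member in all, stood at 377, 438 and 491 CPM in CONV-R (lowest, median, highest) and 462 to 527 in GF. The short membrane subunit Atp5k, named after its values were seen, was at -0.19 ± 0.08 (edgeR adjusted p = 0.0927). In limma-voom Atp5k was called lower (adjusted p = 0.0360). Atp5e, the epsilon subunit, had the lowest value of the complex at -0.31 ± 0.17, with CONV-R 1 and 5 at 75.7 and 77.9 CPM against 38.0 to 55.0 in the other CONV-R libraries.

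**Figure D4:**
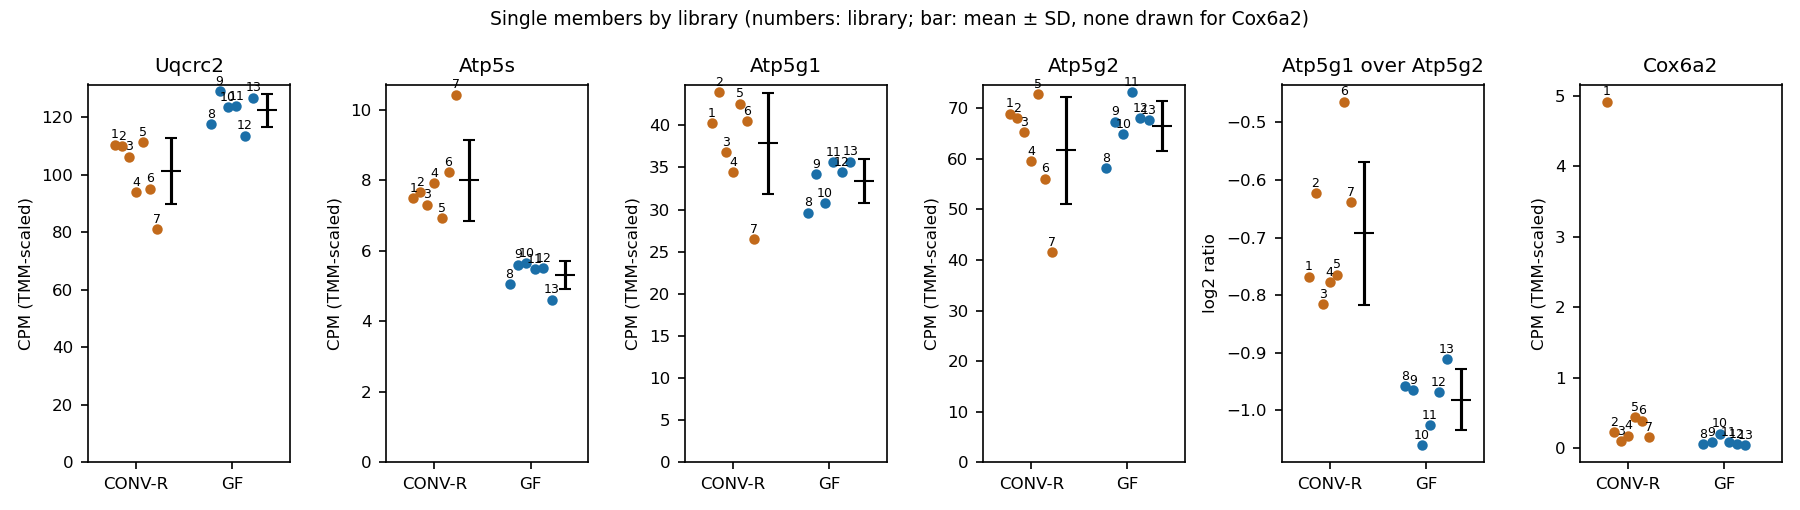
TMM-scaled CPM of Uqcrc2, Atp5s, Atp5g1, Atp5g2 and Cox6a2 and the log2 ratio of Atp5g1 over Atp5g2 (y axes) in each library (x axis); points are libraries, numbered, and bars give the mean ± SD except for Cox6a2. The groups do not overlap for Uqcrc2, Atp5s and the ratio, and Cox6a2 is high in CONV-R 1 alone.

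The membrane ring of complex V is built from subunit c, which the genes Atp5g1, Atp5g2 and Atp5g3 encode as the same mature protein behind different import sequences. Atp5g1 stood at 26.5, 40.2 and 44.0 CPM in CONV-R (lowest, median, highest; mean 37.9 ± 5.98) and at 29.6 to 35.7 in GF (mean 33.4 ± 2.58). Atp5g2 stood at 41.5, 65.2 and 72.7 CPM in CONV-R (mean 61.7 ± 10.6) and 58.1 to 73.1 in GF (mean 66.5 ± 4.93). Each gene on its own overlapped between the groups and was not called by edgeR (adjusted p = 0.208 and 0.495). In alternative edgeR fits, Atp5g1 was lower without CONV-R 7 (-0.25, adjusted p = 0.0281) and without CONV-R 1 and 7 (-0.25, adjusted p = 0.0305). Atp5g2 was higher with the length and GC trends removed (0.32, edgeR adjusted p = 0.0433). The ratio of Atp5g1 over Atp5g2 within a library did separate the groups. The log2 ratio of Atp5g1 over Atp5g2, each as CPM + 0.5, was -0.69 ± 0.12 in CONV-R (SD, n = 7, -0.82 to -0.46) and -0.98 ± 0.05 in GF (n = 6, -1.06 to -0.91). The difference was -0.29 (exact two-sided permutation test, p = 5.83e-04, the smallest that 1716 arrangements can give; adjusted over 4 tested pairs of 8, p = 0.00233).

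Over the 17 alternatives run for it the difference lay between -0.36 and -0.24; with groups that do not overlap, p then depends on the number of libraries alone. A ratio shows unequal change and not which gene changed. The ratio of Atp5g3 over Atp5g2 was 0.68 ± 0.21 in CONV-R and 0.57 ± 0.08 in GF (exact permutation, adjusted p = 0.361). For Cox7a1 over Cox7a2 and Ndufa4l2 over Ndufa4 the log2 ratios differed by 0.38 and 0.07 between the groups (exact permutation, adjusted p = 0.220 and 0.718). Transcript lengths were 596 bases for Atp5g1, 731 for Atp5g2 and 714 for Atp5g3.

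The 200 bases before the RefSeq start of each subunit c gene and of Cox6a1 (GRCm38.p6, all on the minus strand, printed 5′ to 3′ along the gene) are shown because the first pair differed in ratio and Cox6a1 holds matches to 2 motifs known from respiratory chain promoters. Capitals mark matches to GCGCATGCG, core letters bound by the activator NRF1, and to CCGGAAG, bound by ETS factors such as the GABP complex, each searched on both strands. Positions are chr11:96075632-96075831, chr15:102671048-102671247, chr2:73911327-73911526 and chr5:115348959-115349158.
Atp5g1: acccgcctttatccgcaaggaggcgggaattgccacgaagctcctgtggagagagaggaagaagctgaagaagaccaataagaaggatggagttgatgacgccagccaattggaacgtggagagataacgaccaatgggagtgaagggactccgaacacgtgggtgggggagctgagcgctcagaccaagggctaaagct
Atp5g2: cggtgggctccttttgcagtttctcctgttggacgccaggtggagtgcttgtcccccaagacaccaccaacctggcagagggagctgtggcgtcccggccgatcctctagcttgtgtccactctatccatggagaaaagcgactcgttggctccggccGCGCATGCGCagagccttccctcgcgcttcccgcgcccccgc
Atp5g3: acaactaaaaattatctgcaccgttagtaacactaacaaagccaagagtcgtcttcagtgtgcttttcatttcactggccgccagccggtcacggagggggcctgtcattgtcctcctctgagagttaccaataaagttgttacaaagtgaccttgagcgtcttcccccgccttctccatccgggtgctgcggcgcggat
Cox6a1: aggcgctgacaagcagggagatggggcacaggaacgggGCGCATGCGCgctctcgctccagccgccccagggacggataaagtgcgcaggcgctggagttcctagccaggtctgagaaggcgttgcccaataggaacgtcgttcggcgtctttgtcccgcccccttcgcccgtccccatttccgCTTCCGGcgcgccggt
The Atp5g2 stretch holds the NRF1 letters on both strands, where the matches overlap, as does that of Cox6a1. The stretches of Atp5g1 and Atp5g3 hold neither motif.

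Windows from 250 bases before to 50 after the RefSeq start were available for 72 members (77 windows). The NRF1 letters were in 9 of 77 member windows (11.7%), against 1.75% of 32851 RefSeq windows of equal length, not limited to tested genes. The ETS letters were in 19 (24.7%) against 8.86%, and ATGGCGGC, bound by YY1, in 8 (10.4%) against 2.24%, with both strands searched and 0 overlaps between different motifs. Tested members with and without an ETS match had median log2 fold changes of -0.03 and 0.04, with and without the NRF1 letters -0.04 and 0.02, and with and without the YY1 letters 0.03 and 0.02. A match describes letters and shows no binding.

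The 6 genes that are not subunits behaved as single genes. Atp5s, known as ATP synthase coupling factor B, lies on chromosome 12, bases 69724950 to 69744660, in GRCm38. It stood at 6.93, 7.67 and 10.4 CPM in CONV-R (lowest, median, highest; mean 8.00 ± 1.15) and at 4.62, 5.50 and 5.65 in GF (mean 5.32 ± 0.404). All GF libraries lay below all CONV-R libraries, an order seen for 4.32% of all tested genes. The log2 fold change was -0.59 ± 0.11 (95% interval -0.82 to -0.35, edgeR adjusted p = 0.00279). It stayed below the threshold in 27 of 28 alternatives and lost the call with the hepatocyte share in the model (-0.48, edgeR adjusted p = 0.138).

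Atp5sl stood at 60.3 CPM in CONV-R 1, at 24.7 to 29.5 in the other CONV-R libraries and at 25.1 to 30.5 in GF, with a log2 fold change of -0.22 ± 0.19. The complex II assembly factors Sdhaf1, Sdhaf2, Sdhaf3 and Sdhaf4 were at 0.11 ± 0.24, 0.03 ± 0.07, -0.09 ± 0.14 and -0.15 ± 0.10. None was called by edgeR on all 13 libraries. Sdhaf4 was called lower by limma-voom (adjusted p = 0.0452) and by edgeR without CONV-R 1 and 7 (adjusted p = 0.0490).

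Within the CONV-R group the members moved together from library to library. In CONV-R 5, 2 and 1, 76, 75 and 67 of 83 members stood above their own mean over the 13 libraries, and in CONV-R 7 and 4 only 5 and 12 did. Over all tested genes the same share lay between 46.6% and 52.4% in every library. TMM scaling centres each library, so that share does not show how other short mRNAs moved. Among the GF libraries the count of members above their own mean ran from 24 (GF 8) to 59 (GF 11 and GF 13). Over all genes with a length, Spearman's rho of these deviations with transcript length was -0.22, -0.21 and -0.32 in CONV-R 1, 2 and 5. It was 0.09, 0.14, -0.03 and 0.02 in CONV-R 3, 4, 6 and 7. A negative rho means that shorter mRNAs stood higher. The part of length in the shared movement of the members was not tested. The spread of log2 levels was larger in CONV-R than in GF for 78 of 84 tested members (92.9%), as it was for 90.3% of all tested genes. Hepatocyte genes summed to 8090 CPM in CONV-R 1 and 6946 in CONV-R 7, the highest and next highest libraries, whose summed member levels were 6170 and 4717 CPM. The part of other cells and of RNA quality in this spread was not tested.

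**Figure D5:**
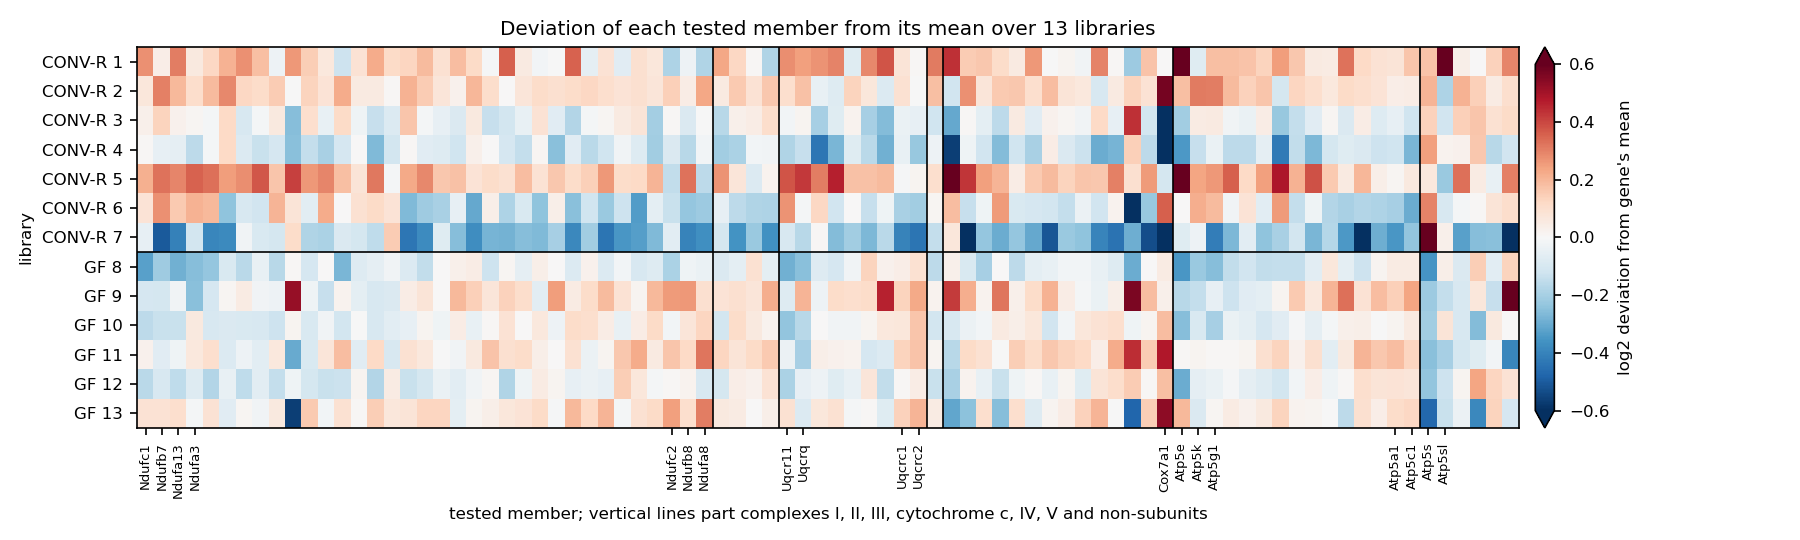
log2 deviation of each tested member from its mean over the 13 libraries (colour), with libraries as rows and members as columns ordered by complex, labelled by the same rule as the plot of log2 fold changes. CONV-R 5 is above the mean for 76 of 83 members with a transcript length and CONV-R 7 for 5, and GF rows are paler.

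Genes that serve the chain but are not part of it were counted from lists. Of 47 tested assembly factors of complexes I to V, 0 were higher and 3 lower (edgeR; 9 at an unadjusted p under 0.05), with a median log2 fold change of -0.10. Over all tested genes 11.4% were higher, 12.7% lower and 38.9% at an unadjusted p under 0.05, larger shares than in this list. The 3 were Timmdc1 and Ndufaf7, which act in complex I assembly, at -0.41 ± 0.12 and -0.19 ± 0.06 (edgeR adjusted p = 0.0299 and 0.0344), and Uqcc1, which acts in complex III assembly, at -0.15 ± 0.05 (edgeR adjusted p = 0.0460). The calls of Ndufaf7 and Uqcc1 were lost in 17 and 18 of 28 alternatives. That of Timmdc1 was lost in 9 with its sign kept and in 1 with its sign turned. Timmdc1 stood at 9.74 to 15.5 CPM in CONV-R against 7.95 to 9.23 in GF, and CONV-R 1 and 7 were highest at 15.5 and 14.8. With the hepatocyte share in the model it stood at 0.0575 (edgeR adjusted p = 0.892), and with the length and GC trends removed the list had 1 gene higher, 0 lower and a median of 0.05.

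Of 19 regulators of mitochondrial gene expression, 3 were higher and 4 lower by edgeR, beside 11.4% and 12.7% of all tested genes. Pprc1 and Ppargc1b, coactivators of the PGC-1 family, were lower at -0.59 ± 0.07 and -0.75 ± 0.18 (edgeR adjusted p = 1.65e-04 and 0.010). The call of Ppargc1b was lost in 4 of 28 alternatives. Ppargc1a, of the same family and named after its values were seen, had the opposite sign and was not called (0.66 ± 0.31, edgeR adjusted p = 0.127). This gene was scarce, with a mean of 1.03 CPM over all libraries. Pprc1 fell from 47.6 to 65.3 CPM in CONV-R to 36.4 to 43.6 in GF, with no overlap. Yy1, a transcription factor, was higher at 0.35 ± 0.07 (edgeR adjusted p = 0.00432), with 49.0 to 63.3 CPM in CONV-R against 68.0 to 82.0 in GF. Gabpa, the ETS subunit of GABP, and Nrf1 are named for their motifs after their values were seen: Gabpa was higher at 0.36 ± 0.09 (edgeR adjusted p = 0.0106) and Nrf1 stood at 0.01 ± 0.05.

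Of 77 mitochondrial ribosomal protein genes, 2 were higher and 3 lower by edgeR, beside 11.4% and 12.7% of all tested genes, with a median of -0.06. With the length and GC trends removed 8 were higher and 1 lower, beside 13.3% and 11.3%, and the median was 0.07. The 3 with the smallest p were Mrpl33 (-0.50 ± 0.08), Mrps18b (-0.50 ± 0.12) and Mrpl50 (0.18 ± 0.06). Their calls were lost in 1, 6 and 13 of 28 alternatives, in that order. Of 13 citric acid cycle enzymes, 0 were called by edgeR or DESeq2, 0 had an unadjusted p under 0.05 in the edgeR fit and 1 was called by limma-voom. With the length and GC trends removed 2 were higher, and the median went from 0.04 to 0.15. Ogdh, the most abundant, stood at 207 ± 13.2 CPM in CONV-R and 216 ± 8.05 in GF. Of 8 tested carriers and related inner and outer membrane proteins, Ucp2, an inner membrane carrier of the uncoupling protein family, was higher at 0.58 ± 0.13 (edgeR adjusted p = 0.00671), from 325 ± 62.0 CPM in CONV-R to 485 ± 59.8 in GF. With the hepatocyte share in the model 1 regulator, Pprc1, was called and 0 genes of the other lists were, by edgeR; Yy1 then stood at 0.23 (adjusted p = 0.308), Gabpa at 0.22 (0.439) and Ucp2 at 0.69 (0.0909).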

How the data were processed

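RNA of liver endothelial cells was measured in 13 libraries, 7 CONV-R and 6 GF, grouped by the labels. The deposited file is a raw count table by gene symbol with 13 library columns and 0 columns of other samples. The authors' tools, per the submitters' processing notes, for build mm10 were STAR 2.7.5a, Subread's featureCounts 2.0.1, DESeq2 1.42.1 and FastQC 0.11.9. The annotation, strand setting and multi-mapping rule were not given in the sources used here.

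Counts were fitted in R 4.3.3 with edgeR 4.0.16 (filterByExpr with a minimum count of 10, TMM, robust quasi-likelihood test, Benjamini-Hochberg over 13915 genes). Alternatives used DESeq2 1.42.0 and limma 3.58.1 (voom with library quality weights). Further ones used other scalings, filters and thresholds, subsets of libraries, a hepatocyte marker covariate, and removal of length and GC trends. Lengths, GC content and gene coordinates came from GENCODE M21 (GRCm38, the same build), with a length for 96.4% of tested genes. Promoter windows came from RefSeq. Ratios used CPM + 0.5. Scripts were tested on simulated data. Precision is limited by depth for scarce isoforms.

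The members and lists were chosen with earlier results of these data known. Named genes were, per complex, the called ones with the smallest p, the most abundant and the one with the largest change, plus isoform pairs and non-subunits, and in other lists the 3 called genes with the smallest p or the most abundant. 1 result that this rule gives is not reported here.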

Additional observations from a re-analysis of the deposited data

Results flagged for a closer look

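The named members, the ratios and the summed levels were searched in 80 groups of libraries, which are not independent of each other. In 10 groups a library's gap to the next exceeded Dixon's 95% critical value (0.625 for 6 libraries, 0.568 for 7). No summed level was among them. Chance alone gives about 1 in 20 groups. In CONV-R 7, Cox4i2 stood at 0.700 CPM (next 0.229), Atp5s at 10.4 (next 8.23), Sdhaf1 at 2.41 (next 5.77), Sdhaf3 at 3.19 (next 3.90) and the log2 ratio of Atp5g3 over Atp5g2 at 1.12 (next 0.67). In CONV-R 1, Cox6a2 stood at 4.92 CPM (next 0.437) and Atp5sl at 60.3 (next 29.5). In GF 10, Cox6a2 stood at 0.208 CPM (next 0.0898) and Cox8b at 0.0297, with 0 in the other GF libraries. In GF 13, Cox6b2 stood at 0.855 CPM (next 0.404). Cox4i2, Cox6a2, Cox6b2 and Cox8b were below the filter on low counts.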

How the results depend on the processing

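No paired analysis was possible because the groups share no replicate numbers. Against 1 member higher and 1 lower, the counts were 2 higher with DESeq2, 3 higher and 4 lower with limma-voom, 0 higher and 6 lower with library totals, 2 lower without the filter on low counts, 0 higher at a threshold of 0.01, 2 lower with CONV-R 1 to 4 only, 6 higher and 3 lower with CONV-R 5 to 7 only, and 0 and 0 with the hepatocyte share in the model (3 and 1 at an unadjusted p under 0.05). The shares of all genes called in these fits, either direction, were in the same order 29.5%, 25.5%, 26.9%, 15.5%, 8.68%, 13.9%, 34.0% and 3.53%. Removing length and GC trends gave 29 higher and a median log2 fold change of 0.19. Some alternatives were added after the data were seen. Removing the length trend alone gave 27 higher and a median of 0.18, beside 12.8% of all genes higher. Removing the GC trend alone gave 4 higher, beside 12.9% of all genes higher. Leaving out CONV-R 1 and 7 gave 5 lower (11.8% of all genes lower). CONV-R 2, 3 and 4 only gave 2 higher and 2 lower (19.0% of all genes called, either direction). Leaving out each library in turn gave 0 to 2 higher and 1 to 4 lower, beside 15.7% to 27.0% of all genes called: 4 lower without CONV-R 7, 3 without CONV-R 4, 2 higher and 2 lower without CONV-R 1, 2 higher without CONV-R 2 and 0 higher without GF 9 (1 at an unadjusted p under 0.05).

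Over all genes, 1593 higher and 1764 lower became 971 and 2773 with library totals, 629 and 579 at a threshold of 0.01, 978 and 1000 with CONV-R 1 to 4 only, and 267 and 224 with the hepatocyte share. Leaving out each library in turn gave 1013 to 1765 higher and 1208 to 1972 lower, with 1013 higher without GF 9. Timmdc1 turned from -0.41 to 0.0575 with the hepatocyte share. That share did not overlap between the groups, so its effect and that of the group are hard to tell apart. The cause of these changes was not tested. Marker sums kept their calls when taken as mean log2 levels. Depth limits the scarce isoforms: Ndufa4l2 had 1 to 25 counts in a library.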
